A study of Homo sapiens with 4 samples.

Results

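Exons that lie between 2 very long introns were taken from a table of skipped exon events in HEK293T cells, a line from human embryonic kidney that takes up transfected nucleic acid well. An exon was included where it was longer than 50 nt and shorter than 400 nt, where the flanking exons of the same event lay at least 20000 nt away on both sides, and where the 4 libraries held a mean of at least 20 junction reads. Junction reads span a splice junction and support either inclusion or skipping of the exon. The event with most reads was kept for each exon. This gave 765 exons in 566 genes, of 49507 distinct exons in the table and 43103 exons with a mean of at least 20 reads. Another 297 exons met the length and intron limits with fewer reads. The exon nearest to the read limit had a mean of 20.25 reads, and the next one outside had 19.5. The shortest flanking intron that met the limit was 20006 nt, and the longest just outside was 19993 nt.

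The study compared 2 libraries from HEK293T cells transfected with an antisense oligonucleotide (ASO) against SNORD89, at 70 nM, with 2 libraries from HEK293T cells labelled as having had no ASO. SNORD89 belongs to the C/D box small nucleolar RNAs, and the ASO is a gapmer, a modified DNA strand that directs RNase H to the RNA it pairs with. RNA was taken 48 h after transfection; the labels of both groups carry the transfection protocol, and no control ASO is named. Neither the headers nor the labels say which set of the table holds the ASO libraries; the name of the deposited table puts SNORD89 before the cells without ASO, an order that was not used to assign the sets. Directions are therefore given as first set against second set, and libraries as library 1 and library 2 of a set, names that pair nothing. A table of exon skipping does not measure SNORD89, and whether it was depleted was not checked.

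To splice an exon between very long introns, the spliceosome has to pair splice sites that are transcribed far apart. Vertebrate exons are short and are mostly recognised across the exon, by factors bound at the 3′ splice site before it and the 5′ splice site after it. Long introns are common in genes for transcription factors, adhesion molecules, kinases and cytoskeletal proteins. An exon whose length is a multiple of 3 can be left out without a shift of the reading frame.

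The exons on which the results below turn are shown first, as they stand in GENCODE release 29 (GRCh38). They were matched by exon length and both introns of the event, or by 1 intron only for those of FHOD3. They were chosen after their values were seen, among coding exons. Each is printed 5′ to 3′ on the strand of its gene, and capitals mark its first base and its last 3 bases, the exonic part of the splice sites. The exons of METTL8, POU2F1, SNX24, BTRC and FHOD3 were called as different between the sets. That of MAPKAP1 had an inclusion level near 0.5, those of RTN3 and GPHN were almost always skipped, and those of CAPZB and PSMB7 were almost always included.
METTL8, 92 nt, chr2:171360422-171360513, minus strand: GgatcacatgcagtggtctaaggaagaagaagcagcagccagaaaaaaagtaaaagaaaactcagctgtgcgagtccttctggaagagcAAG
POU2F1, 101 nt, chr1:167303474-167303574, plus strand: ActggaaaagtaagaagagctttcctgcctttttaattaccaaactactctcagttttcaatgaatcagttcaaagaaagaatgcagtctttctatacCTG
SNX24, 99 nt, chr5:122891027-122891125, plus strand: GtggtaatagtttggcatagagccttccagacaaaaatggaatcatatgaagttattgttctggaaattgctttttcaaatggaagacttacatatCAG
BTRC, 108 nt, chr10:101430345-101430452, plus strand: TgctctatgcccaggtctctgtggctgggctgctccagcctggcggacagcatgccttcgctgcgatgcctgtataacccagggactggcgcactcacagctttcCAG
FHOD3, 107 nt, chr18:36355539-36355645, plus strand: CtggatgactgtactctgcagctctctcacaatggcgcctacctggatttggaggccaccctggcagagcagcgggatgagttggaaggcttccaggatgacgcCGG
FHOD3, 65 nt, chr18:36372680-36372744, plus strand: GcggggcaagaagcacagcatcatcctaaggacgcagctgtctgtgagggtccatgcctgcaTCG
MAPKAP1, 108 nt, chr9:125506310-125506417, minus strand: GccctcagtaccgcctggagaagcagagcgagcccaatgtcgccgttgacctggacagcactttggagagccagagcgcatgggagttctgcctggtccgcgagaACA
RTN3, 57 nt, chr11:63704851-63704907, plus strand: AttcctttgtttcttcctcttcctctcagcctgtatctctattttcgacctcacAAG
GPHN, 57 nt, chr14:66985682-66985738, plus strand: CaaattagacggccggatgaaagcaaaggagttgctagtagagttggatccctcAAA
CAPZB, 90 nt, chr1:19419661-19419750, minus strand: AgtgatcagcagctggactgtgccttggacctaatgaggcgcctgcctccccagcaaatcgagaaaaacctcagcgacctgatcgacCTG
PSMB7, 59 nt, chr9:124384598-124384656, minus strand: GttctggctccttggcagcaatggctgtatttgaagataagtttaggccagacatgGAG

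Among these exons the share of G and C ran from 34.3% in SNX24 and 34.7% in POU2F1 to 62.0% in BTRC and MAPKAP1. The exons of METTL8, SNX24, BTRC, RTN3 and PSMB7 end in AG, the usual last exonic bases before a 5′ splice site, and the others do not. Of the 765 exons, 743 were matched to GENCODE 29, 541 of them by both introns, and 56.5% of the matched exons end in AG. The same share was 52.6% among 7945 matched exons with both introns under 1000 nt. The median share of G and C was 45.9% in the exons between very long introns, 46.6% in matched exons with exactly 1 intron of at least 20000 nt, and 58.1% in those between introns under 1000 nt. Within the 743 exons this share hardly varied with how often the exon was used: its median was 45.9% in exons included above 0.95, 45.8% in those of intermediate inclusion and 46.0% in those included below 0.05.

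A read counts in each event of the deposited table that uses its junction. Summed over all events, junction reads came to 38613055 and 39012939 for the first set, against 42868431 and 43929373 for the second. Library 2 of that set stood apart from the rest. It had no skipping read on 52.3% of the 8046 exons between introns under 1000 nt, against 30.0%, 30.9% and 32.5% in the other 3 libraries. For the 765 exons between very long introns the share without a skipping read was 26.5% and 33.5% in the first set, against 41.4% and 50.1% in the second. Their median reads per exon were 122 and 99 in the first set, against 58 and 68 in the second; the part of depth in these shares was not tested. Inclusion levels of the 765 exons differed by more than 0.2 between the 2 libraries of the first set in 4.31% of exons, and between those of the second set in 10.6%.

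The flanking introns had a median length of 37929 nt upstream and 34371 nt downstream. The longest were 283762 nt upstream and 224903 nt downstream. Both introns reached 50000 nt around 83 exons and 100000 nt around 8 exons. In 345 of the 765 exons no other exon of the gene in the table lay within either intron. In the other 420 the table holds another exon inside the distance, so there the very long intron is that of the event and not of every transcript. For 109 of the 765 exons, another event of the same exon had more reads and a flanking intron under 20000 nt. Several genes had more than 1 such exon: 428 genes had 1, 138 had more, and the most in 1 gene was 6. The exons are not independent of each other, since 84 share their skipping junction with another exon of the group and 30 overlap another one.

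Most exons between very long introns were nearly always included in their event. The inclusion level is the form with the exon as a share of both forms of its event, after division of reads by the length of each form. Transcripts outside the event do not enter. This level had a median of 0.956 over the 765 exons (mean of 4 libraries for each exon). It was above 0.95 in 401 exons (52.4%), between 0.05 and 0.95 in 258 (33.7%) and below 0.05 in 106 (13.9%). Near-full inclusion was more common among exons with shorter introns. The share above 0.95 was 59.0% among 3501 exons with exactly 1 intron of at least 20000 nt, 70.6% among 8046 exons between introns under 1000 nt, and 66.6% among all 39105 exons of this length range with enough reads. By library the median inclusion level of the 765 exons was 0.952 and 0.963 in the first set, against 0.974 and 1 in the second. Exons with exactly 1 intron of at least 20000 nt had 0.969 and 0.973 against 0.979 and 1. Library 2 of the second set also had a median of 1 in exons between introns under 1000 nt and in all exons of this length range.

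Read depth moved with the difference between intron classes. Exons between very long introns had a median of 88.5 junction reads, against 345.5 between introns under 1000 nt. The share of exons above 0.95 rose with depth in every intron class. With 20 to 50 reads it was 33.6% of 211 exons between very long introns and 37.9% of 675 exons between short introns. With 50 to 100 reads it was 45.4% against 50.8%, with 100 to 200 reads 61.7% against 63.7%, and with 200 reads or more 73.5% of 185 exons against 79.8% of 5244. In the 3 classes with an upper limit the exons between very long introns stood 1.96 to 5.42 percentage points lower, where the whole groups differed by 18.2 points. The class of 200 reads or more is open, and depth within it was not matched. These are descriptions of exons in 1 set of 4 libraries and carry no test.

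**Figure D1:**
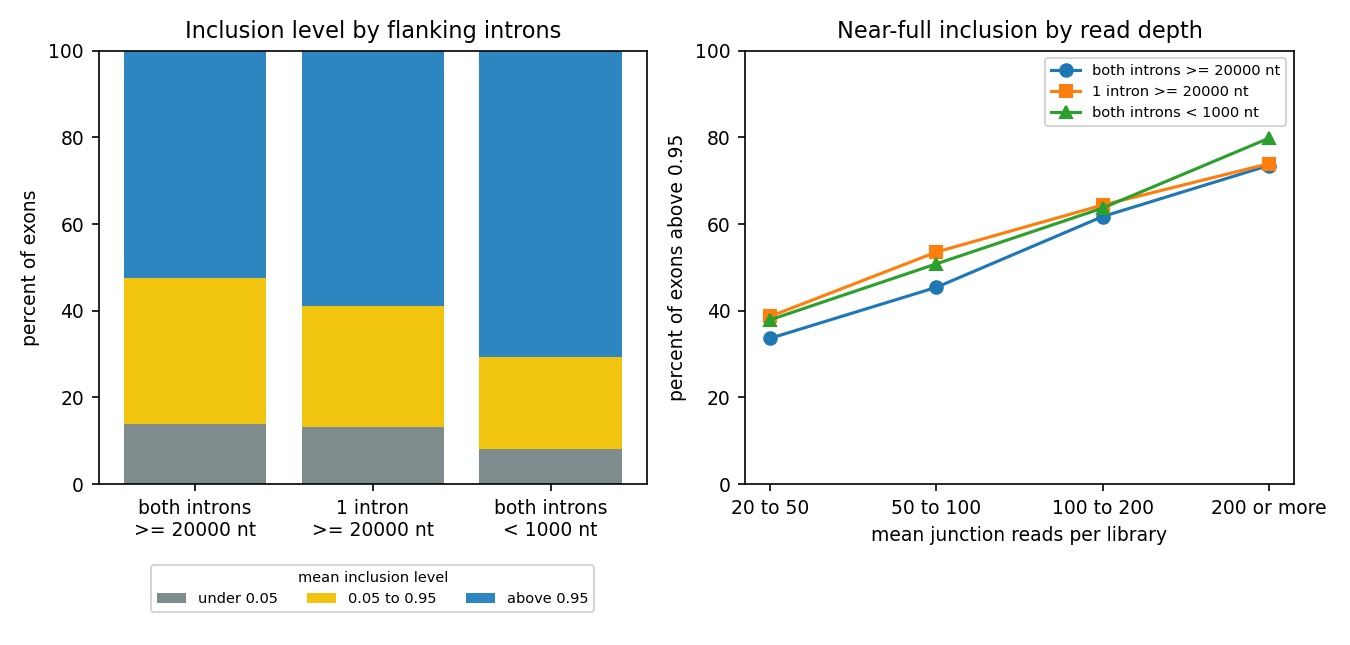
Left, percent of exons (vertical axis) in 3 classes of mean inclusion level for exons with both introns of at least 20000 nt, with 1 such intron, and with both under 1000 nt. Right, percent of exons above 0.95 against the mean junction reads per library; the lines lie close together, with 73.5% and 79.8% in the deepest class for the longest and shortest introns.

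The share of well-included exons changed little with the shorter flanking intron up to 10000 nt and was lower beyond. Among all exons of this length range the share above 0.95 was 66.7% where the shorter intron was under 1000 nt, 68.4% from 1000 to 3000 nt, 66.3% from 3000 to 10000 nt and 57.9% from 10000 to 20000 nt. It was 51.6% of 579 exons from 20000 to 50000 nt and 48.1% of 77 exons beyond that. Here each exon counts with its most-read event of any intron length, so the last classes hold fewer exons than the 765. Median reads fell along the same order from 283 to 69.25. Within the 765 exons the log10 length of the shorter intron bore little relation to inclusion. Spearman rho was -0.07 and Pearson r -0.04 over 765 exons that share their libraries, while rho between depth and inclusion was 0.36.

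Inclusion varied with the coding content of the 765 exons, and read depth varied with it too. An exon was the second exon of its matched transcript in 336 cases (45.2% of 743). That share was 40.5% of matched exons with exactly 1 intron of at least 20000 nt. It was 14.6% of exons between introns under 1000 nt and 21.6% of all exons of this length range. Coding exons, 452 in number, had a median inclusion level of 0.975, and 68.1% of them were above 0.95. The 123 exons in a 5′ untranslated region had a median of 0.700 with 28.5% above 0.95, and the 94 partly coding exons had a median of 0.909. The 66 exons of non-coding transcripts had a median of 0.189, and 42.4% of them were below 0.05. Median reads were 106 for the coding exons, 69.25 for those in a 5′ untranslated region, 65.75 for partly coding exons and 54.6 for those of non-coding transcripts; the part of depth in these medians was not tested. Matched second exons had a median inclusion level of 0.939 and later exons 0.963.

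Coding exons between very long introns had a length divisible by 3 in 48.0% of cases (217 of 452). The share was 43.8% among coding exons with exactly 1 intron of at least 20000 nt. Coding exons between introns under 1000 nt had 41.5%, and all coding exons of this length range 43.2%. Between very long introns it was 75% (12 of 16) among coding exons below an inclusion level of 0.05, 49.2% of 128 at intermediate levels and 46.1% of 308 above 0.95. Coding exons between introns under 1000 nt ran in the same order, with 56.9%, 45.6% and 40%.

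The 8 exons with most junction reads were included at 0.927 or more in each of the 4 libraries. The 59-nt exon of PSMB7, a catalytic-class subunit of the proteasome (chr9:127146877-127146935, hg19), had inclusion levels of 0.998 and 0.999 in the first set, against 1 and 0.999 in the second, from 2459, 2893, 4030 and 4743 reads. The exon of CAPZB, which caps actin filaments (chr1:19746155-19746244), had 1 and 1 against 0.999 and 0.998. A 157-nt exon of EIF3H, a translation initiation factor subunit, lay between 0.992 and 1. The exon of PCMT1, which repairs damaged aspartate residues in proteins, lay between 0.996 and 1, and that of APP, the amyloid precursor protein, between 0.994 and 1. An exon of SND1, a nuclease of the RNA-induced silencing complex, lay between 0.991 and 1, and that of ATXN10 between 0.997 and 1. The 100-nt exon of ERI3, an exoribonuclease, was the lowest of the 8, at 0.949 and 0.95 in the first set, against 0.942 and 0.927 in the second. In these 8 exons the authors' deposited table gives absolute differences of at most 0.015.

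At the other end, the exons with the lowest inclusion and a mean of at least 40 reads were skipped in almost all reads of their events. The 57-nt exon of RTN3, a protein that shapes the endoplasmic reticulum (chr11:63472323-63472379), had 1 inclusion read in each library of the first set and 0 in the second, beside 1062, 998, 694 and 738 skipping reads. The 57-nt exon of GPHN, the gephyrin scaffold of inhibitory synapses (chr14:67452399-67452455), had inclusion levels of 0.00518 in library 1 of the first set and 0 in the other libraries. Its 95% Wilson upper bounds, which cover counting error only, were 0.0288, 0.0214, 0.0393 and 0.0263. Other coding exons of GPHN in the group lay at 0.957 to 1 and at 0.972 to 1, so 1 gene held both kinds. EIF3H likewise held a 72-nt exon at 0.00295 and 0.001 in the first set, against 0.000987 and 0 in the second, beside its near-constant 157-nt exon. The rest of these exons belong to LYRM4, POLA1, CMSS1, NSMCE2 and FYN, and each had at most 6 inclusion reads in a library. The sets differed by at most 0.003 in these 8 exons, in the authors' deposited table.

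FYN, a tyrosine kinase of the Src family, had the most exons of the group, 6, all upstream of its coding sequence or in a non-coding transcript. Its 70-nt exon was included at 1 and 0.980 in the first set, against 0.973 and 1 in the second. The other 5 stayed at or below 0.0544 in every library. The 4 exons of GRB10, an adaptor of the insulin receptor, were spread more widely. Its 88-nt exon lay between 0.893 and 0.937, its 170-nt exon between 0.402 and 0.576, its 97-nt exon between 0.048 and 0.335 and its 98-nt exon between 0 and 0.0914. The last 3 of these share 1 skipping junction, with 42 and 36 skipping reads in the first set, against 35 and 48 in the second.

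The 6 exons nearest to an inclusion level of 0.5, among those with a mean of at least 40 reads, varied in how far libraries of 1 set lay apart. The 108-nt coding exon of MAPKAP1, a subunit of the mTORC2 kinase complex (chr9:128268589-128268696), had levels in the first set of 0.467 (95% interval 0.426 to 0.508) and 0.483 (0.438 to 0.528). Those of the second set were 0.487 (0.439 to 0.535) and 0.414 (0.377 to 0.452). The sets overlapped, and the intervals of both libraries of the second set overlapped those of the first set. The 167-nt exon of SERGEF had 0.506 and 0.471 against 0.579 and 0.550, with no overlap between sets and an FDR that the authors' deposited table puts at 0.264. The 89-nt exon of PTK2, the focal adhesion kinase, had 0.490 and 0.451 against 0.610 and 0.638, with an FDR of 0.0882. The exon of the antisense RNA gene TMEM161B-AS1 ran from 0.322 and 0.483 to 0.497 and 0.687; whether strand was used in counting is not given in the sources used here. The exons of LCORL and GRB10 near 0.5 had sets that differed by 0.069 and 0.109, with an FDR of 1 and 0.466. None of these 6 exons was called.

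The exons flanked by the longest introns on both sides had no single splicing level in common. The 102-nt exon of PARD3, a scaffold of cell polarity (chr10:34985246-34985347), lies between introns of 118456 and 179158 nt. It was included at 0.964 and 0.917 in the first set, against 1 and 1 in the second, and the difference in the authors' deposited table was -0.059 with an FDR of 0.00786. The 53-nt exon of FHIT, a gene that spans a common fragile site, lies between 158519 and 220013 nt and was included at 0.812 and 1 against 1 and 1. The exon of PTPRM, a receptor phosphatase, lies between 206257 and 113834 nt, with 1 and 1 against 1 and 0.687, and that of CHST11, a chondroitin sulfotransferase, between 144391 and 154957 nt, with 1 and 1 against 1 and 0.830. The exon of TMEM178B, between 137898 and 224903 nt, had 1 and 0.762 against 1 and 1. It is among the exons called below, and its difference was 0 without library 2 of the first set. The 88-nt exon of CHSY3, between 143723 and 132057 nt, was at 0 in 3 libraries and at 0.159 in library 2 of the first set. In 5 of these 6 exons 1 library alone, not always the same, departed from the other 3.

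To ask which of these exons were spliced differently in the 2 groups, an exon was called where the authors' deposited table gives an FDR below 0.05 and inclusion levels that differ by 0.1 or more. By this rule 44 of the 765 exons (5.75%) were called, in 42 genes, beside a background of 2.50% over all 43103 exons tested. Of these, 26 (3.40%) were higher in the first set, beside a background of 1.23%, and 18 (2.35%) were lower, beside 1.27%. An FDR under 0.05 alone was given to 78 exons (10.2%; background 5.60%), and a deposited p-value under 0.05 to 180 (23.5%; background 14.0%). The sets were apart, with no overlap of inclusion levels, in 190 exons (24.8%), close to the background of 23.3%. Called exons whose sets did not overlap numbered 28 (3.66%), against a background of 1.99%. Of the 3501 exons with exactly 1 intron of at least 20000 nt, 141 (4.03%) were called.

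Depth moved with the calls. Called exons had a median of 41.9 junction reads per library, and the other exons 93.5. The share called was 12.8% of the 211 exons with 20 to 50 reads, 6.76% of 207 with 50 to 100, 1.85% of 162 with 100 to 200 and 0% of 185 with more. Among all exons of this length range the shares in the same depth classes were 9.11%, 4.86%, 1.84% and 0.249%. Over the 765 exons the absolute difference had a Spearman rho of -0.60 with depth.

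**Figure D2:**
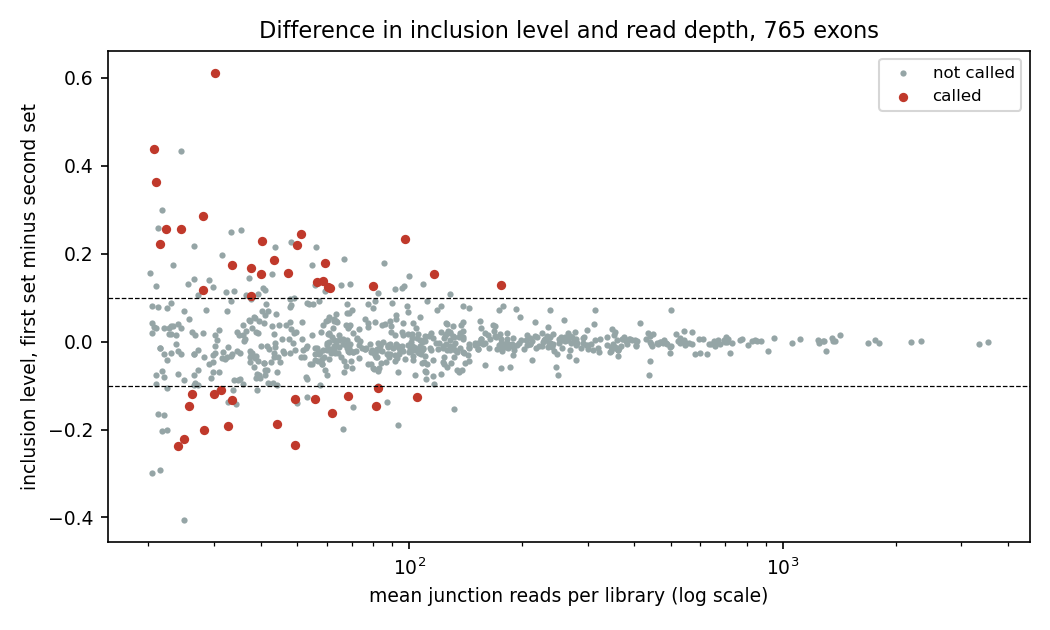
Difference in inclusion level, first set minus second set, against the mean junction reads per library on a log scale, for the 765 exons; dashed lines mark 0.1 and -0.1. The 44 called exons lie at a mean of 20.75 to 175.25 reads, and the scatter of the others narrows to the right.

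A test with the spread between libraries as its error gave no call. The quasi-binomial model, fitted across 54503 events with Benjamini-Hochberg adjustment, had 0 of the 765 exons at an adjusted p under 0.05 (background 0.00232%, 1 exon of those tested), and the smallest adjusted p was 0.859. Its unadjusted p was under 0.05 in 31 exons (4.05%; background 2.91%), 16 of them among the 44. limma, fitted to log2 ratios of inclusion over skipping reads, also had 0 exons, with 67 (8.76%; background 4.74%) at an unadjusted p under 0.05. On simulated reads the quasi-binomial model found 133 of 200 events of middle inclusion changed by 0.3 when libraries differed by counting error alone. It found 32 of 200 with added spread between libraries, so its count of 0 leaves room for changes of that size. limma found 0 of the 200 in either simulation, so its count of 0 could not have shown such changes.

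Of the 44 called exons, 34 were of 2 kinds. In 16 of the 44 (2.09% of the 765; background 0.311%) the exon was fully included in 3 libraries and lower in 1, and that library was library 2 of the second set in 8 cases, library 2 of the first set in 5, library 1 of the first set in 2 and library 1 of the second set in 1. In 18 (2.35%; background 1.07%) the difference stayed at 0.1 or more whichever library was left out. In these 18 the sets did not overlap, and 11 were higher and 7 lower in the first set. With library 2 of the second set left out, 14 of the 26 higher exons and 17 of the 18 lower ones still differed by at least 0.1. Of the 18 lower exons 16 had both libraries of the second set at full inclusion.

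**Figure D3:**
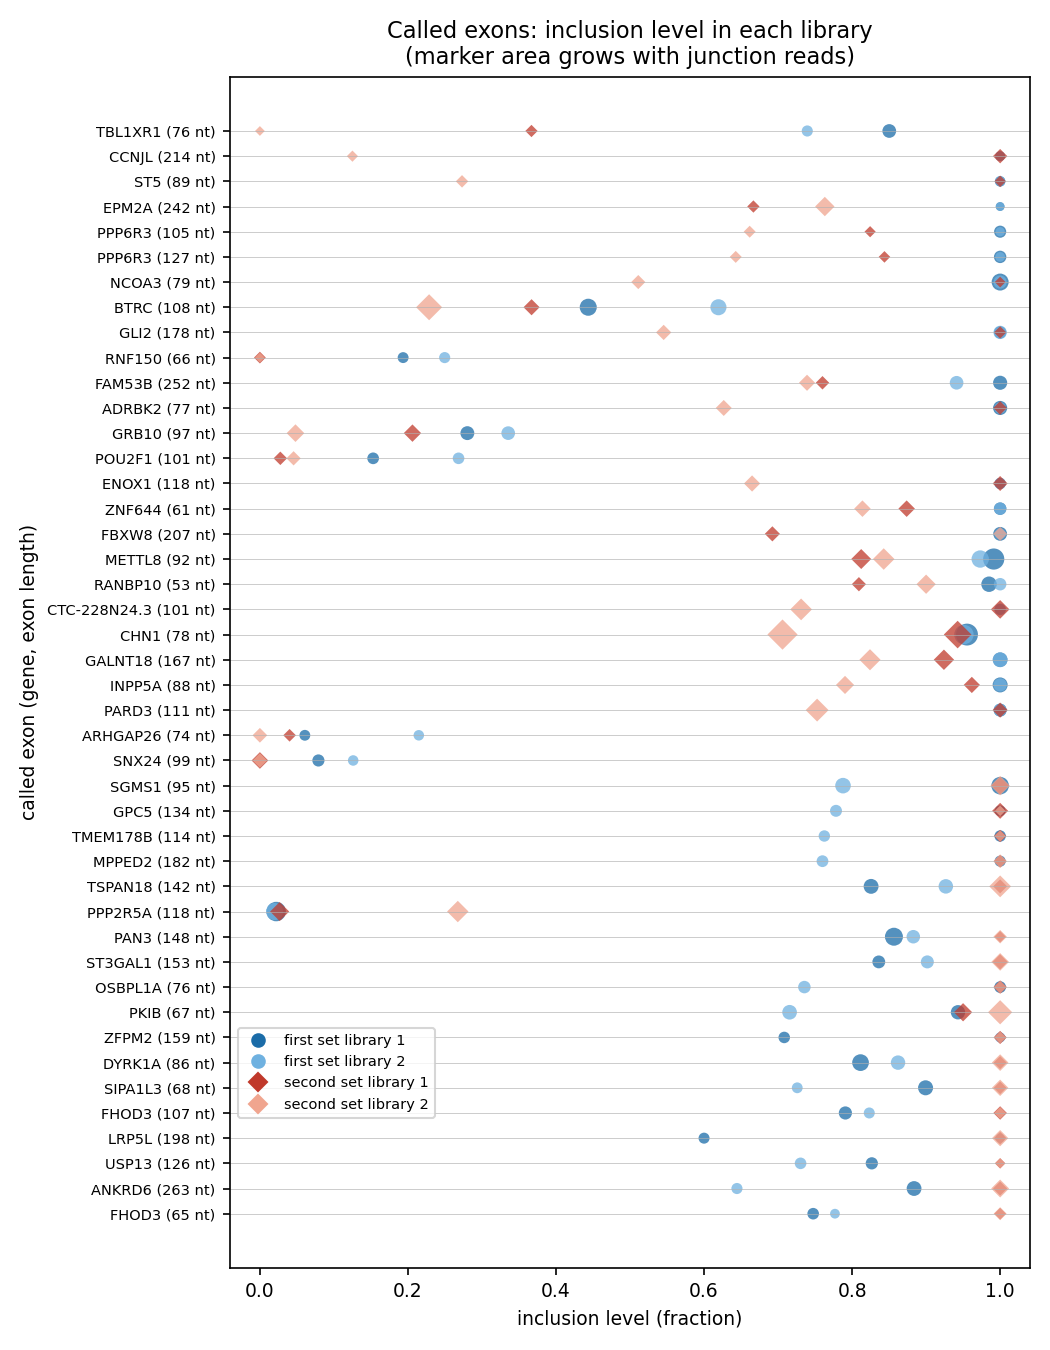
Inclusion level (horizontal axis) of the 44 called exons in each of the 4 libraries, in order of the difference; circles are the first set, diamonds the second, and marker area grows with the exon's junction reads. Many diamonds and circles stand at 1, with 1 library apart from the rest in 16 exons.

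Among the 18 exons, BTRC and METTL8 had the most reads of those higher in the first set. BTRC is the substrate receptor of the SCF ubiquitin ligase that marks beta-catenin for degradation. Its 108-nt coding exon (chr10:103190102-103190209, printed above) had inclusion levels in the first set of 0.444 (95% interval 0.355 to 0.536) and 0.619 (0.511 to 0.717). Those of the second set were 0.367 (0.240 to 0.516) and 0.229 (0.172 to 0.297). The 4 libraries held 114, 99, 40 and 136 reads there. The sets did not overlap, yet library 1 of the second set and library 1 of the first lay within each other's intervals. The difference was 0.233 (FDR 0.0208) in the authors' deposited table, and it ran from 0.146 to 0.322 when 1 library was left out. METTL8 is a methyltransferase that modifies transfer RNA. Its 92-nt coding exon (chr2:172216932-172217023) had 0.991 (0.953 to 0.998) and 0.973 (0.908 to 0.993) against 0.812 (0.686 to 0.896) and 0.843 (0.731 to 0.913). It was skipped in 1 and 2 reads in the first set and in 9 and 9 in the second, and the intervals of the sets did not overlap except for 0.908 to 0.913. Its difference was 0.154 (FDR 6.87e-05) in the authors' deposited table, with the smallest FDR among the 44 called exons, and leaving out 1 library gave 0.139 to 0.170.

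TBL1XR1, part of the NCoR corepressor complex, had the largest difference. Its 76-nt exon in the 5′ untranslated region (chr3:176816254-176816329) had 0.850 and 0.739 in the first set, against 0.367 and 0 in the second, from 67, 37, 15 and 2 reads. The 2 reads of the last library allow an upper bound of 0.560, and without that library the difference was 0.428 in place of 0.611. EPM2A encodes laforin, a phosphatase of glycogen. Its 242-nt coding exon was at 1 and 1 against 0.667 and 0.763, from 16, 14, 15 and 67 reads. PPP6R3, a regulatory subunit of protein phosphatase 6, entered with 2 exons that start at the same base, of 105 and 127 nt, and count the same skipping reads. The 105-nt form had 1 and 1 against 0.824 and 0.662, with 0 skipping reads in the first set, against 1 and 3 in the second. These rest on few reads: the lower 95% bounds in the first set were 0.676 and 0.646 for EPM2A and 0.880 and 0.744 for PPP6R3.

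Some exons higher in the first set were seldom used. The 101-nt exon of POU2F1, the Oct-1 transcription factor (chr1:167272711-167272811), had 0.153 (0.0828 to 0.265) and 0.268 (0.166 to 0.404) against 0.0276 (0.00483 to 0.142) and 0.0455 (0.0124 to 0.154). It had 10 and 16 inclusion reads in the first set, against 1 and 2 in the second, and its difference was 0.174 (FDR 0.00381) in the authors' deposited table. The 66-nt exon of RNF150 had 0.193 and 0.250 against 0 and 0, but the second set had only 12 and 2 reads there. The 97-nt exon of GRB10 had 0.280 and 0.335 against 0.206 and 0.048. The 99-nt exon of SNX24, a sorting nexin, had 6 and 6 inclusion reads in the first set, against 0 and 0 in the second, beside 42, 25, 44 and 28 skipping reads. Its inclusion level was 0.079 and 0.126 against 0 and 0, with upper bounds of 0.0498 and 0.0762 in the second set, and without library 2 of the first set the difference was 0.079. FAM53B, at 1 and 0.941 against 0.760 and 0.739, and ZNF644, at 1 and 1 against 0.874 and 0.814, complete those that kept their difference. METTL8, POU2F1, GRB10, ZNF644 and SNX24 lie outside the rule for named exons and were chosen after their values were seen, as were DYRK1A, SIPA1L3 and PAN3 below.

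The 7 exons lower in the first set that kept their difference had both libraries of the second set at full inclusion. FHOD3, a formin that nucleates actin filaments, gave 2 of them, and these lie between the same flanking exons and share 8 and 4 skipping reads in the first set, against 0 and 0 in the second. Its 107-nt exon (chr18:33935502-33935608) had 0.791 (0.646 to 0.887) and 0.823 (0.632 to 0.927) against 1 (0.769 to 1) and 1 (0.663 to 1). Its 65-nt exon (chr18:33952643-33952707) had 0.747 and 0.777 against 1 and 1, and its difference of -0.238 (FDR 0.00152) in the authors' deposited table was the largest of the 18 lower ones. The intervals of the sets overlapped for both. Another FHOD3 exon of the group, 114 nt long, had 0.745 and 0.641 against 0.700 and 0.840 and was not called.

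DYRK1A, a protein kinase encoded on chromosome 21, had an 86-nt exon at 0.811 and 0.862 against 1 and 1, with 14 and 7 skipping reads in the first set and 0 among 19 and 44 reads in the second. PAN3, a subunit of a poly(A) nuclease, had 0.857 and 0.883 against 1 and 1, from 129, 64, 9 and 22 reads. ANKRD6 had 0.884 and 0.644 against 1 and 1, and USP13, a deubiquitinase, had 0.827 and 0.730 against 1 and 1, although the second set held only 5 and 4 reads. SIPA1L3, a GTPase-activating protein, had 0.899 and 0.726 against 1 and 1. In each of these the second set had fewer reads than library 1 of the first set, and its lower bound at full inclusion reached down to 0.758 for DYRK1A, 0.540 for PAN3, 0.772 for ANKRD6, 0.361 for USP13 and 0.752 for SIPA1L3.

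The exons called on 1 library made up 5 of the 16 largest differences. CCNJL, a cyclin J-like protein, was at 1 in 3 libraries and at 0.125 (0.0326 to 0.377) in library 2 of the second set, from 2 inclusion and 7 skipping reads. NCOA3, a coactivator of nuclear receptors, was at 0.511 (0.326 to 0.693) in that library, ST5 at 0.273 (0.124 to 0.499) and GLI2, a transcription factor of the hedgehog pathway, at 0.545 (0.368 to 0.712), all at 1 elsewhere. Without that library the difference of these 4 exons was 0. LRP5L was at 0.600 (0.418 to 0.758) in library 1 of the first set and at 1 in the others, and its difference was 0 without it. CHN1, a Rac GTPase-activating protein, had the deepest called exon, 78 nt long. It stood at 0.955 and 0.951 in the first set, against 0.943 and 0.706 in the second, and its difference of 0.128 was 0.011 without library 2 of the second set. The 118-nt exon of PPP2R5A ran the other way, at 0.0220 and 0.0199 against 0.0267 and 0.267, and its difference of -0.126 was -0.006 without that library. CHN1 and PPP2R5A were chosen after their values were seen.

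The share of junction reads that fell on the 765 exons was also compared. It was 4247 per 1000000 junction reads of the table in library 1 of the first set (95% Wilson interval 4227 to 4268) and 3775 in library 2 (3755 to 3794). It was 2860 (2844 to 2876) and 3129 (3113 to 3146) in the second set. A read counts in every event that uses its junction, so these sums can hold a read more than once. The intervals take each count as a separate read and can be too narrow even for counting error. Both libraries of the first set lay above both of the second, with means of 4011 ± 334 and 2994 ± 191 (SD, n = 2 each), a ratio of 1.34. Junction reads also entered the choice of the exons, so no test is given, and 2 libraries against 2 allow no exact p under 0.333. Exons with exactly 1 intron of at least 20000 nt had a ratio of 1.29, and exons between introns under 1000 nt had 0.928, from 266563 and 276912 against 294260 and 291654 per 1000000. Reads per 1000 reads of those short-intron exons were 15.9 and 13.6 against 9.72 and 10.7 for the 765 exons. Abundant genes took a different share of each library. With the 100 genes with most reads left out of the denominator, the ratio was 1.22 for the 765 exons. It was then 1.17 for exons with exactly 1 intron of at least 20000 nt and 0.842 for exons between introns under 1000 nt. The ratio thus fell in each of these classes.

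Exon by exon, 507 of the 765 exons (66.3%; background 57.4%) had a larger share of the reads in both libraries of the first set than in both of the second, and 51 (6.67%; background 12.5%) had a smaller one. Exons with exactly 1 intron of at least 20000 nt had shares much like those of the 765, 67.7% and 6.83%. Among exons between introns under 1000 nt the shares were 40.2% and 21.8%. QKI, an RNA-binding regulator of splicing, was among the first kind: its 143-nt exon (chr6:163876311-163876453) had 1090 and 775 reads against 266 and 193. Its inclusion level was 0.970 and 0.973 against 1 and 1, with 17 and 11 skipping reads in the first set and 0 in the second. That gave a difference of -0.028 (FDR 0.0389) in the authors' deposited table, too small for a call. Fewer transcripts of a gene and less efficient splicing of the exon cannot be told apart by these reads, which count spliced junctions only. PSMB7 ran the other way, with 2459 and 2893 reads against 4030 and 4743.

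**Figure D4:**
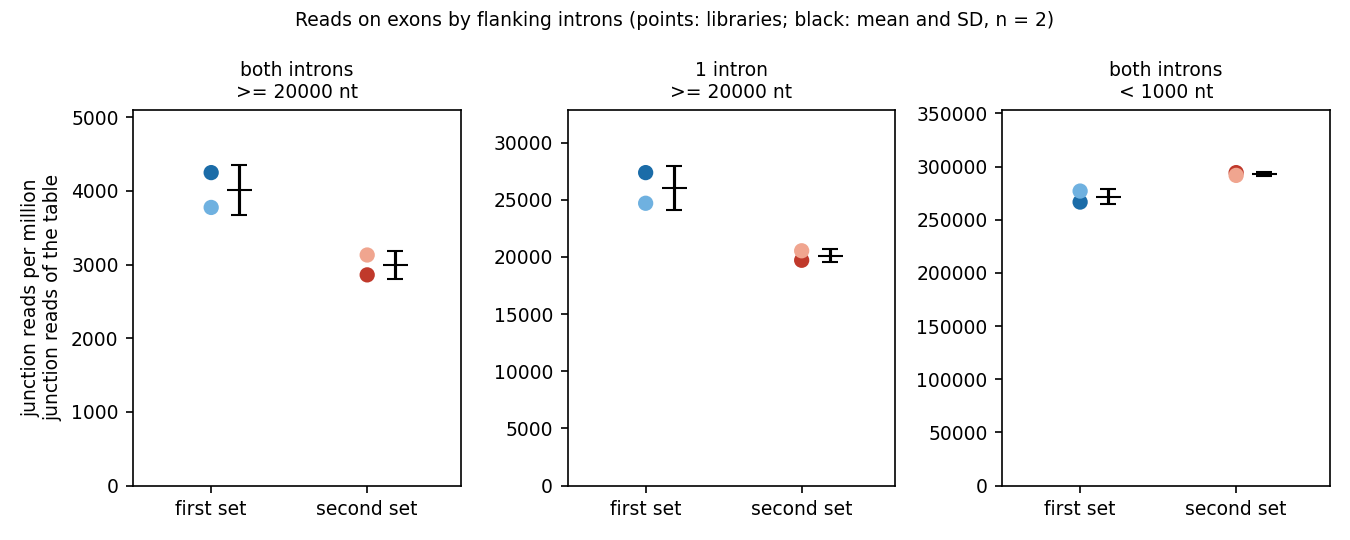
Junction reads per 1000000 junction reads of the table, by library and set, for 3 classes of flanking introns; colored points are libraries, and the black marks are the mean and SD of 2 libraries. The first set lies above the second for exons with 1 or 2 very long introns (4247 and 3775 against 2860 and 3129 for both) and below it for exons between introns under 1000 nt.

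Counts in 8 gene lists were small. The lists do not hold every gene of their kind, and their counts are read beside 5.75% called among the 765 exons and 2.50% over all exons tested. The list of transcription factors and cofactors held 25 of the exons, of which 3 were called: TBL1XR1 and GLI2, higher in the first set, and ZFPM2, lower. POU2F1 and NCOA3, called and higher in the first set, are not on that list. The list's median difference was -0.010, beside -0.004 over the 765 exons and -0.001 over all exons tested. The 135-nt exon of TBL1X and the 111-nt exon of CUX1 were not called, with levels of at most 0.0164 in TBL1X and of 0.966 to 1 in CUX1. RNA-binding proteins held 22 exons and 0 calls, with differences from -0.067 to 0.082. KHDRBS3, a splicing factor, had exons at 0.992 to 1 and at 0.928 to 0.973. Among 29 exons on the list of protein kinases and phosphatases 1 was called, in DYRK1A, while the called exons of EPM2A, PPP6R3 and PPP2R5A are not on it. PPP2R5C, a regulatory subunit of protein phosphatase 2A, had exons at 0.989 to 1 and at 0 to 0.0176.

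Cytoskeleton and motor genes held 16 exons with 3 calls, both of FHOD3 lower and that of ARHGAP26 higher in the first set, and a median difference of -0.025. MAP4, a microtubule-binding protein, had its 69-nt exon at 0.907 and 0.955 against 0.882 and 0.938. Adhesion and synaptic scaffold genes held 10 exons with 2 calls, another exon of PARD3 higher and GPC5 lower. CDH2, N-cadherin, had 0.986 and 0.973 against 1 and 1. The list of ubiquitin and proteolysis genes held 12 exons with 2 calls, BTRC and FBXW8, both higher, while USP13, called and lower, is not on it. CUL3, a cullin scaffold of ubiquitin ligases, had its 198-nt exon at 0.896 and 0.883 against 0.834 and 0.957, a spread within the second set that exceeded the difference of -0.006. Chromatin genes held 15 exons and fragile site genes 9, with 0 calls in either. HDAC8, on the chromatin list, was chosen after its values were seen. Its 109-nt and 113-nt exons had differences of -0.097 (FDR 0.00129) and -0.084 (FDR 0.00366) in the authors' deposited table, short of 0.1. Both count the same skipping reads, 4 and 10 in the first set, against 0 and 0 in the second. Unadjusted quasi-binomial p-values under 0.05 fell on 2, 0, 4, 0, 2, 1, 1 and 0 exons of the transcription factor, RNA-binding, adhesion, cytoskeleton, kinase, ubiquitin, chromatin and fragile site lists, beside 4.05% of the 765 exons and a background of 2.91%. The 4 exons of the adhesion list belong to NRXN3 and PARD3, so several share a gene.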

How the data were processed

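Libraries were made from poly(A) RNA of HEK293T cells, 4 in all, and read from both ends at 150 bases. Per the submitters' processing notes, cutadapt and STAR were used with hg19; versions are not given in the sources used here. Per the file headers, the deposited table has the rMATS layout for skipped exons counted on junction reads; the rMATS version and annotation are not given in the sources used here. Each of its cells joins the reads of both libraries, and its inclusion levels are fractions that the authors made from reads divided by form lengths. The difference in inclusion level is a deposited score from -1 to 1, first set minus second. Its p-value is the one the authors obtained from rMATS, and its FDR is the adjustment over all events. Inclusion levels recomputed from the reads lay within 0.0005 of the deposited values.

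The exons, gene lists and thresholds were chosen with earlier results of these data known. Intron lengths are distances between the exons of an event. Positions are hg19 with 1-based starts; those beside sequences are GRCh38 from GENCODE 29, matched by exon spacing, with no conversion. Because counts of a set share a cell, the planned count model was not run, and another test took its place: a quasi-binomial model per event in R 4.3.3, with dispersion moderated by limma 3.58.1, trended on depth and not under 1. Its prior, from events with at least 10 inclusion and 10 skipping reads in each set, was revised 2 times because the model missed the changes put into simulated reads, and it was settled after the data were seen. The simulation changed 200 events with a share of inclusion reads of 0.35 to 0.65, and its added spread was an intraclass correlation of 0.02. Of its 137 and 32 calls on simulated data 2.92% and 0% were false. limma was also fitted to the log2 ratio with a pseudocount of 0.5. Wilson intervals at 95% cover counting error only. Those of read shares can be too narrow even for that, since a read can enter more than 1 event. Nothing in the headers gives a batch. The labels call the samples biological replicates; whether they came from separate cultures on separate days is not stated. Named with values were the 16 called exons with the largest difference, the 8 with most reads, the 8 least included and 6 nearest 0.5 among those with at least 40 reads, the 6 with the longest shorter intron, up to 3 per gene list, and exons said to be chosen after their values were seen; some exons named by this rule are not reported here.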

Additional observations from a re-analysis of the deposited data

How the results depend on the processing

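The count of called exons moved with the thresholds. It was 17 of 554 exons with a mean of at least 50 reads, 74 of 1062 with no read minimum, 71 at a difference of at least 0.05, 15 at 0.2, 27 at an FDR under 0.01 and 28 where the sets had to be apart. It was 101 of 2277 exons (4.44%) with both introns of at least 10000 nt and 11 of 86 (12.8%) at 50000 nt. The 86 take each exon's most-read event at that limit and so exceed the 83 counted above. With the most-read event of any intron length, 7 of 77 exons (9.09%) from 50000 nt on were called, at a median of 69.25 reads. The part of depth in these shares was not tested. The count was 14 among the 345 exons with no other exon of the gene inside either intron, an alternative chosen after seeing the data. It stayed within 1.5 times of 44 with at least 10 reads, with adjustment over tested events only, with all events of an exon, and with the most-read event chosen before the intron rule (34 of 656 exons, chosen after seeing the data). Leaving out 1 library kept 31 to 42 of the 44 differences at 0.1 or more.

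The limma count was 0 too, but limma found 0 of the 200 changes put into simulated reads, so that count cannot decide. The quasi-binomial count of 0 held with read minimums of 10 and 50 and with intermediate exons only. Over the fits that left out 1 library it ran from 0 to 15; the 15 came without second set library 1, when 814 events of the whole table were called, and the lone library of that set was assumed to vary like the first set. The ratio of read shares ran from 1.22 to 1.35, the last with no read minimum, an alternative chosen after seeing the data, and the median inclusion level from 0.954 to 0.973 over their alternatives. The planned count model and its second tool were not run. No paired analysis was possible because the columns carry no replicate numbers. Depth limits the reading of the 211 exons with 20 to 50 reads, such as that of TBL1XR1, whose last library had 2 reads and an upper bound of 0.560.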
